A study of Zea mays with 6 samples.

Results

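Glutathione transferases join the tripeptide glutathione to reactive compounds, among them herbicides and products of lipid oxidation, and the resulting conjugates are carried into the vacuole by ABC transporters. In plants the family is large, falls into several classes of which phi and tau are the largest, and is known in maize for the detoxification of chloroacetanilide herbicides and for its induction by herbicide safeners. The leaf RNA of field-grown maize described here was measured with 38 probe sets for 34 genes of this family, of 17621 probe sets on the array. A probe set was taken as a member where its gene has a symbol or synonym made of gst and a number in the NCBI gene table (29 probe sets), a title naming glutathione transferase in the study's supplementary gene list (3 probe sets: gst20, GST22 and GST34), or both (6 probe sets). The 9 titled members come from a list of genes that the study selected on these same arrays. No probe set carried the symbol bz2, the glutathione transferase needed to deposit anthocyanin, which the rule leaves out.

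The arrays compared Tietar, a conventional variety, with DKC6575, its near-isogenic MON810 counterpart, in which the cauliflower mosaic virus 35S promoter drives a truncated synthetic CryIAb gene. All plants were fully watered up to the 6-leaf stage. Leaves were taken at the 8-leaf stage (T1) from the plot kept at 100% field capacity (T1 control). At silking (T2) they were taken from the same irrigation regime (T2 control) and from the plot left without irrigation since the 6-leaf stage, at 0% field capacity (T2 drought). The study describes a single plot for each irrigation regime, so irrigation and plot cannot be told apart. Each of the 2 varieties was measured on 1 array in each of the 3 conditions, 6 arrays in all, so the plants behind an array are not separate replicates and the varieties were used as replicates of a condition. In leaf RNA, fewer cells of a type and less RNA per cell cannot be told apart.

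Signals were on a linear scale, with array medians of 118 to 141 and 39.6% to 41.6% of probe sets under a signal of 64. Of 22 leaf marker probe sets, 18 were above that level on average, with a mean log2 signal of up to 14.5, and both probe sets of the endosperm gene opaque2 were dim (mean log2 signals of 1.89 and 2.20). The leaf list includes LOC541677, matched through its synonym PDK1, a different gene from that of pyruvate orthophosphate dikinase (LOC542759). Its probe sets were above that level on average and gave signals of at most 594 on any array. The summed leaf marker signal was 237464 to 253024 for T1 control, 177971 to 215503 for T2 control and 138557 to 151363 for T2 drought. Summed signals of 10 pollen marker probe sets were 184 to 252 for T1 control, 1398 to 2787 for T2 control and 1584 to 3006 for T2 drought. The actin controls gave a log2 ratio of 3′ to 5′ signal of 4.65 to 4.66 for T1 control, 4.57 to 4.67 for T2 control and 4.25 to 4.28 for T2 drought. On the second principal component of all probe sets the Tietar T2 control array stood apart (-86.9, with the nearest array at -2.41), but not on that of the brighter probe sets described below (-23.9, with the nearest at -11.7). The part of pollen, RNA quality and this array in the results below was not tested.

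Statements on change were restricted to probe sets whose log2 signals averaged 6 or more (a signal of 64), here called brighter. By this limit 25 members (24 genes) were brighter, among 10383 brighter probe sets on the array. The other 13 were gst6, gst8, gst9, gst11, gst12, the second probe set of gst13, gst14, gst16, GST25, 2 of the 4 probe sets of gst31, gst32 and gst35. Of their 78 signals 76 lay under 64, and 11 of these probe sets were under 64 on every array. Just inside the limit were a gst31 probe set and GST26 (both at a mean log2 of 6.10) and gst13 (6.27), and just outside were another gst31 probe set (5.91), GST25 (5.86) and gst35 (4.93). Probe sets bind with different strength, so signals were compared between arrays and not between members.

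To find differences shared by the varieties, limma was run on log2 signals over both varieties together (variety and condition as terms, spread moderated along a trend with signal level, Benjamini-Hochberg adjustment over all 17621 probe sets). From T1 to T2 in irrigated plants, 7 of the 25 brighter members rose (28%) and 0 fell at an adjusted p under 0.05, where 9.38% of all brighter probe sets rose and 5.49% fell. Between irrigated and non-irrigated plants at T2, 2 members rose (8%) and 0 fell, where 0.896% of all brighter probe sets rose and 0.78% fell. Without adjustment, an unadjusted limma p under 0.05 was reached from T1 to T2 by 12 members with positive differences (48%, background 20.7%) and 0 with negative ones (background 13.6%). For drought the unadjusted counts were 8 positive (32%, background 10.5%) and 3 negative (12%, background 7.98%). These calls rest on the moderation along signal level: with a single prior spread for all 17621 probe sets no probe set on the array passed in either comparison, and the smallest adjusted p of any was 0.113 for development and 0.429 for drought. With that prior over the brighter probe sets alone, 6 members rose from T1 to T2 and 0 under drought. Of these 6, 5 were among the 7 above, and the other was GST26. None of the 13 dim members passed limma in any comparison.

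**Figure D1:**
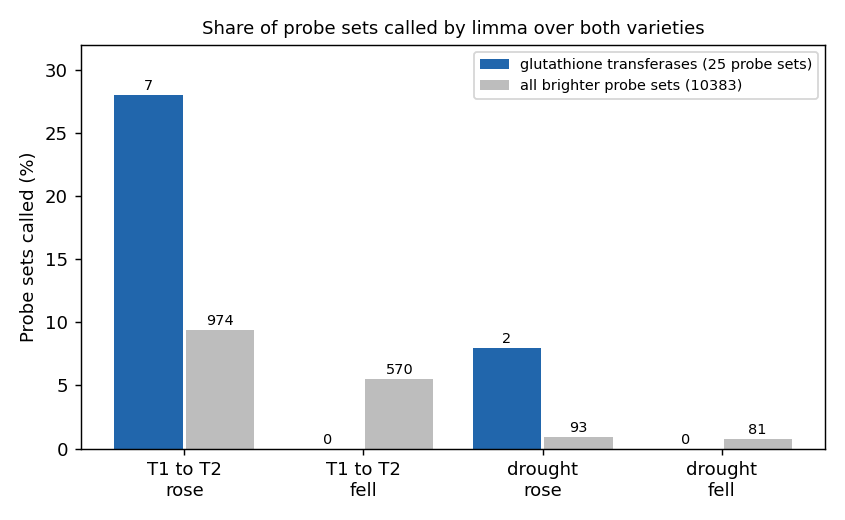
Share of probe sets called by limma over both varieties (percent, bars from 0) for the 25 brighter glutathione transferase probe sets and for all 10383 brighter probe sets, by direction, from T1 to T2 control and from T2 control to T2 drought. Numbers above the bars are probe sets called: 7 and 2 members rose, against 974 and 93 of all brighter probe sets, and 0 members fell.

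Of 3 members singled out here for a role in herbicide metabolism, which need not be the only ones, gst2 rose from T1 to T2. The other members, gst1 and GST3, passed in neither comparison. The gene gst1 encodes glutathione transferase I, a phi-class enzyme that conjugates chloroacetanilide herbicides. Its probe set (LOC542366) gave signals of 6706 (T1 control), 5857 (T2 control) and 5353 (T2 drought) in Tietar, and of 6046, 5696 and 5786 in DKC6575. All 6 signals lay within a narrow range, and the drought difference over both varieties was -0.05 on the log2 scale (95% interval -0.30 to 0.20) and that from T1 to T2 was -0.14 (-0.39 to 0.11). Transferase III, another phi-class enzyme, is encoded by GST3 (LOC541990), whose signals in the same order were 497, 386 and 468 in Tietar, against 489, 481 and 530 in DKC6575. Its log2 difference was 0.21 (-0.07 to 0.49) under drought and -0.19 (-0.47 to 0.09) from T1 to T2, neither past the threshold.

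The gene gst2 encodes transferase IV, the enzyme that herbicide safeners induce in maize. Signals of gst2 (LOC542311) were 511 (T1 control), 888 (T2 control) and 1043 (T2 drought) in Tietar, and 373, 658 and 866 in DKC6575. In both varieties the T1 array was the lowest, and the T1 and T2 control signals did not overlap. It rose 1.75-fold from T1 to T2 (log2 0.81, SE 0.10, limma adjusted p = 0.00438), with nearly equal differences in Tietar (0.80) and DKC6575 (0.82). The drought difference was 0.31 (SE 0.10, limma adjusted p = 0.244). Tietar was above DKC6575 in each condition, by 0.45, 0.43 and 0.27 on the log2 scale.

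**Figure D2:**
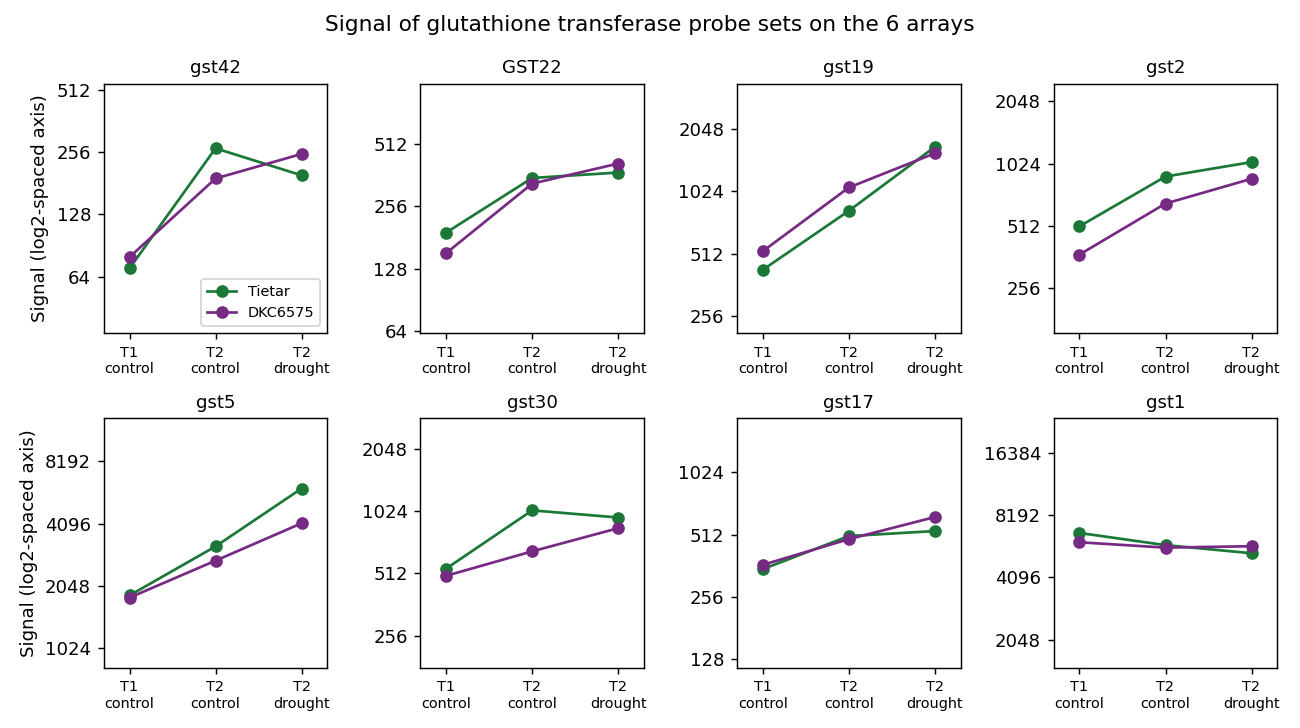
Signal of the 7 members that rose from T1 to T2, and of gst1, on the 6 arrays (log2-spaced vertical axis, each panel with its own range), with 1 array per point and lines joining the arrays of a variety. In gst5 and gst19 both T2 drought points lie above both T2 control points, while gst1 stays between 5353 and 6706.

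Of the numbered members, for which no enzyme class is given here, gst5 and gst19 were the 2 that rose in both comparisons (background 0.144% of brighter probe sets). The comparisons share the T2 control arrays, so the counts are not independent. The gst5 probe set (LOC542734) gave 1847 (T1 control), 3185 (T2 control) and 6061 (T2 drought) in Tietar, and 1801, 2718 and 4118 in DKC6575. The T1 arrays of the varieties were close to each other, and the T2 drought arrays were the highest in both. It rose 1.61-fold from T1 to T2 (log2 0.69, SE 0.13, limma adjusted p = 0.0171) and 1.70-fold under drought (log2 0.76, SE 0.13, limma adjusted p = 0.0463). The drought difference was 0.93 in Tietar and 0.60 in DKC6575, and 1.04 and 0.49 when both were set against the mean of the 2 T2 controls.

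For gst19 (LOC541834) the signals were 428 (T1 control), 824 (T2 control) and 1677 (T2 drought) in Tietar, and 526, 1068 and 1562 in DKC6575. DKC6575 was above Tietar on both irrigated dates and below it under drought, and the 3 conditions did not overlap. The rise from T1 to T2 was 1.98-fold (log2 0.98, SE 0.13, limma adjusted p = 0.00487) and that under drought 1.73-fold (log2 0.79, SE 0.13, limma adjusted p = 0.0412). Under drought the difference was 1.03 in Tietar, the only brighter member at 2-fold or more in that comparison, and 0.55 in DKC6575. Set against the mean of the 2 T2 controls these were 0.84 and 0.74. From T1 control to T2 drought, with no T2 control array in the difference, gst19 differed by 1.97 in Tietar and 1.57 in DKC6575, and gst5 by 1.71 and 1.19.

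Both drought calls lie close to the threshold. Over the scaling alternatives (quantile, cyclic loess and median centring) both members passed, with limma adjusted p of 0.0260 to 0.0448. Without a variety term neither did (0.0991 for gst5 and 0.0661 for gst19). Leaving out 1 array leaves a condition with 1 array, and calls over the whole array then changed too, so only estimates are given. The drought estimate ranged from 0.55 to 0.98 for gst5 and from 0.57 to 1.01 for gst19. It was lowest without the Tietar T2 drought array and highest without the DKC6575 T2 drought array. Neither call was kept in every such fit.

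The largest rise from T1 to T2 was that of gst42 (LOC541850). It gave 70.2 (T1 control), 266 (T2 control) and 197 (T2 drought) in Tietar, and 79.5, 191 and 250 in DKC6575. Both T1 signals were just above 64 and well below all 4 T2 signals, and the varieties went opposite ways from T2 control to T2 drought. The rise was 3.02-fold (log2 1.59, SE 0.23, limma adjusted p = 0.00632), 1.93 on the log2 scale in Tietar and 1.26 in DKC6575. The drought difference over both varieties was -0.02 (95% interval -0.55 to 0.51).

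GST22 (LOC542631) went from 192 at T1 control to 352 at T2 control and 373 at T2 drought in Tietar, and from 152 to 330 and 413 in DKC6575. The T1 arrays stood below all others. It rose 1.99-fold (log2 1.00, SE 0.15, limma adjusted p = 0.00783) from T1 to T2, and its drought difference was 0.20 (SE 0.15, limma adjusted p = 0.633). Signals of gst30 (LOC541841) were 540, 1032 and 953 in Tietar, against 498, 654 and 846 in DKC6575. It rose 1.58-fold (log2 0.66, SE 0.14, limma adjusted p = 0.0276), by 0.93 in Tietar and 0.39 in DKC6575. The smallest rise was that of gst17 (LOC542543), with 349, 504 and 533 in Tietar and 366, 487 and 623 in DKC6575. Its rise was 1.39-fold (log2 0.47, SE 0.12, limma adjusted p = 0.0434). This call was lost under quantile normalization, cyclic loess and median centring (limma adjusted p of 0.0886, 0.0987 and 0.127). The gst30 call was lost under median centring (limma adjusted p = 0.0531) and without a variety term (0.0693). With a single prior spread over the brighter probe sets alone, neither gst30 (0.0593) nor gst17 (0.0622) passed.

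The calls from T1 to T2 also depended on single arrays, most of all the T1 arrays, and none was kept in every fit with 1 array left out. Calls over the whole array changed as well, so only estimates are given for these fits. They ranged from 0.76 to 0.86 for gst2, 0.51 to 0.87 for gst5, 0.37 to 0.57 for gst17 and 0.85 to 1.12 for gst19. For GST22 the range was 0.82 to 1.17, for gst30 0.41 to 0.92 and for gst42 1.22 to 1.97. Of the 7 members called, gst2, GST22, gst30 and gst42 have titles in the study's supplementary gene list, which was drawn from these arrays, and gst5, gst17 and gst19 do not. Pollen markers rose over the same interval, with 8 of their 10 probe sets called, where 9.38% of all brighter probe sets rose. Only 6 of the 10 were brighter, and the 8 include dim ones. For the brightest, exopolygalacturonase1, the T1 signals were 7.06 in Tietar and 2.51 in DKC6575, so its mean passed the limit only through its T2 arrays. The same held for profilin 2, pollen profilin variant 2, Zea m 1 allergen and group 3 pollen allergen, all under 64 at T1. Among the 6 brighter ones only profilin homolog1 was above 64 at T1, at 66.2 in Tietar and 65.9 in DKC6575.

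The 18 brighter members that did not pass from T1 to T2 had log2 differences of -0.27 to 0.89, with limma adjusted p of 0.0827 to 0.962. Nearest to the threshold were GST34 (0.86, SE 0.26, adjusted p = 0.0827) and gst23 (0.89, SE 0.28, adjusted p = 0.0954). GST34 gave 103, 213 and 115 in Tietar and 90.0, 143 and 154 in DKC6575, so that its T2 control signal was the highest in Tietar but not in DKC6575. For gst23 the signals were 84.4, 125 and 176 in Tietar, against 39.6, 92.2 and 167 in DKC6575, in the same ascending order of conditions in both varieties, with the DKC6575 T1 signal under 64.

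**Figure D3:**
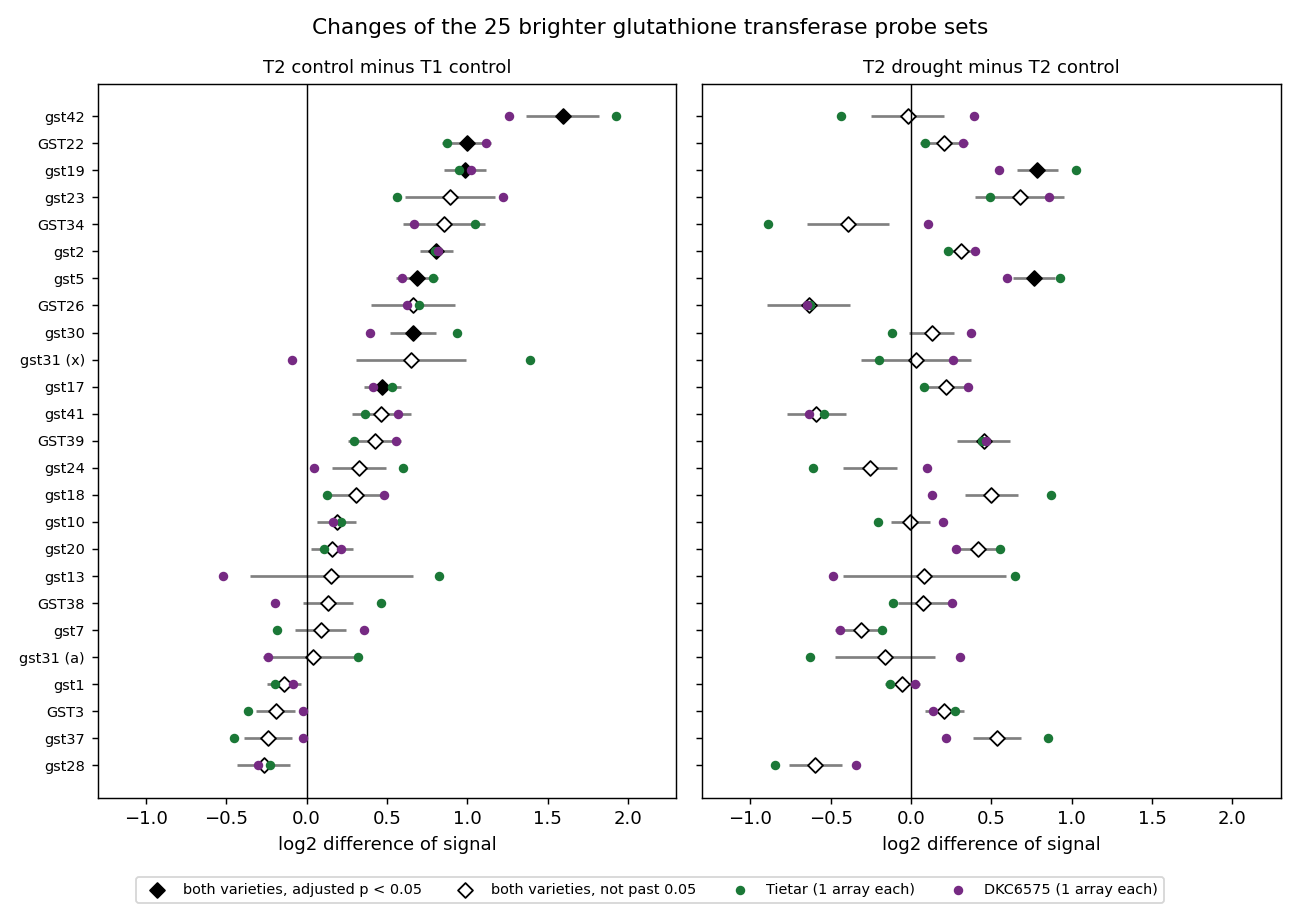
Log2 difference of signal for the 25 brighter glutathione transferase probe sets, from T1 to T2 control and from T2 control to T2 drought. Circles are differences of 2 arrays of a variety, diamonds the limma estimate over both varieties with lines of 1 SE, and filled diamonds those with an adjusted p under 0.05; 7 are filled for development and 2 for drought, all to the right of 0.

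In single varieties, where 1 array stands on each side and no test is possible, 3 members were at least 2-fold higher at T2 than at T1 in Tietar (background 2.74%) and 4 in DKC6575 (background 2.15%), and 0 were 2-fold lower in either (backgrounds 2.03% and 1.06%). In Tietar these were gst42 (log2 1.93), a gst31 probe set (1.39) and GST34 (1.05), and in DKC6575 gst42 (1.26), gst23 (1.22), GST22 (1.11) and gst19 (1.02). GST34 and GST22 are members only by their titles in the study's list, which was selected on these same arrays at 2-fold. Their part in these counts is therefore not independent of that selection, while the backgrounds are unselected. The gst31 probe set gave 61.0, 160 and 139 in Tietar and 92.0, 86.3 and 104 in DKC6575, with a Tietar T1 signal under 64. Over both varieties this probe set gave 0.65 and the other brighter gst31 probe set 0.04, neither past the threshold (limma adjusted p = 0.303 and 0.962).

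The sign of the T1 to T2 difference was shared by the varieties in most members. It was positive in both for 16 of the 25 (64%, background 41.8%) and negative in both for 4 (16%, background 31%), namely gst1, GST3, gst28 and gst37. The other 5 had opposite signs (20%, background 27.2%). The same 16 had both T2 control signals above both T1 signals (background 35.2%), and the same 4 had both below (background 25.5%). The median log2 difference of the brighter members was 0.53 in Tietar and 0.39 in DKC6575, against 0.04 and 0.06 for all brighter probe sets.

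Under drought the members were divided. The difference was positive in both varieties for 11 of the 25 (44%, background 35%), negative in both for 4 (16%, background 26.9%) and of opposite signs for 10 (40%, background 38.1%), and in 9 both drought signals lay above both T2 control signals (background 28.7%) and in 4 both lay below (background 21.1%). The median was -0.11 in Tietar (0.04 for all brighter probe sets) and 0.26 in DKC6575 (0.02 for all). Against the mean of the 2 T2 controls the medians were 0.12 and 0.15, so that the sign in Tietar turned with the baseline array. In DKC6575 0 members reached 2-fold (backgrounds 0.674% higher and 0.568% lower), and in Tietar gst19 alone did (backgrounds 2.62% and 1.59%).

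The 23 brighter members that did not pass under drought had log2 differences of -0.64 to 0.68 and limma adjusted p of 0.18 to 0.998. The lowest adjusted p among them was that of gst28 (LOC541840), which gave 332, 283 and 158 in Tietar and 305, 247 and 195 in DKC6575. Its T2 drought signal was the lowest in both varieties (log2 difference -0.59, SE 0.16, limma adjusted p = 0.18). Next came gst37 (LOC541846), with 893, 653 and 1181 in Tietar and 818, 805 and 937 in DKC6575. Its T2 drought signal was the highest in both (0.54, SE 0.15, limma adjusted p = 0.183). Negative differences in both varieties were also given by gst7, GST26 and gst41, and 2 of the 6 GST26 signals were under 64. For gst10 (LOC541828), the signals were 819, 949 and 824 in Tietar, against 747, 836 and 959 in DKC6575, and its drought difference over both varieties had an interval of -0.28 to 0.28.

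The drought response of Tietar minus that of DKC6575 has no replicate and was not tested. It was largest for gst13 (1.13), followed by gst18 (0.74) and gst37 (0.64), and lowest for GST34 (-0.999), a gst31 probe set (-0.93) and gst42 (-0.83). These values contain the T2 control arrays of both varieties. A common baseline, such as the mean of the 2 T2 controls, cancels from this value. What remains is only the difference between the varieties at T2 drought, which is no response. That difference was 1.78 for gst13, 0.31 for gst18, 0.33 for gst37, -0.42 for GST34, -0.66 for the gst31 probe set and -0.34 for gst42. For gst5 it was 0.56, above gst18 and gst37. The median over the brighter members was -0.17 (0.02 for all brighter probe sets), and the response was the more positive in Tietar for 10 of 25 members (40%, background 52%).

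Between the varieties over the 3 conditions, 0 of the 25 brighter members passed limma in either direction (backgrounds 0.0578% higher and 0.0193% lower in Tietar). The lowest adjusted p was that of gst2 (log2 0.38, SE 0.08, adjusted p = 0.469). At an unadjusted limma p under 0.05, 4 members were on the higher side in Tietar (gst2, gst5, gst23 and gst30; background 3.46%) and 1 on the lower side (gst24; background 2.92%). Tietar was above DKC6575 in all 3 conditions in 5 members (20%, background 13.5%: gst2, gst5, gst20, gst23 and gst30) and below it in 3 (12%, background 13.4%: gst24, GST26 and gst41). A 2-fold difference was found for gst23 at T1 control (log2 1.09; backgrounds 0.626% higher and 0.25% lower) and for gst13 at T2 drought (1.78; backgrounds 0.78% higher and 0.318% lower), and for 0 members at T2 control (backgrounds 0.905% higher and 0.53% lower).

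Plant glutathione transferase genes often lie side by side. In the B73 reference gene order, 33 of the 34 genes could be placed, and 16 of them lay in 5 runs with at most 4 other genes between neighbours. The longest run holds 7 genes, in the order GST34, gst42, gst32, gst37, GST39, GST38 and gst30, with gst32 dim. Within it gst42 and gst30 rose from T1 to T2 (1.59 and 0.66), whereas gst37, between them, gave -0.24 (SE 0.15, limma adjusted p = 0.39). GST39 and GST38, next to each other, gave 0.42 and 0.13 (limma adjusted p = 0.166 and 0.675). No gene of the run passed under drought. A run of 3 holds gst11, gst12 and gst10, and 3 runs of 2 hold gst28 with gst7, gst13 with gst9, and GST25 with gst35. In the pair gst28 and gst7 both drought differences were negative (-0.59 and -0.31, limma adjusted p = 0.18 and 0.459).

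**Figure D4:**
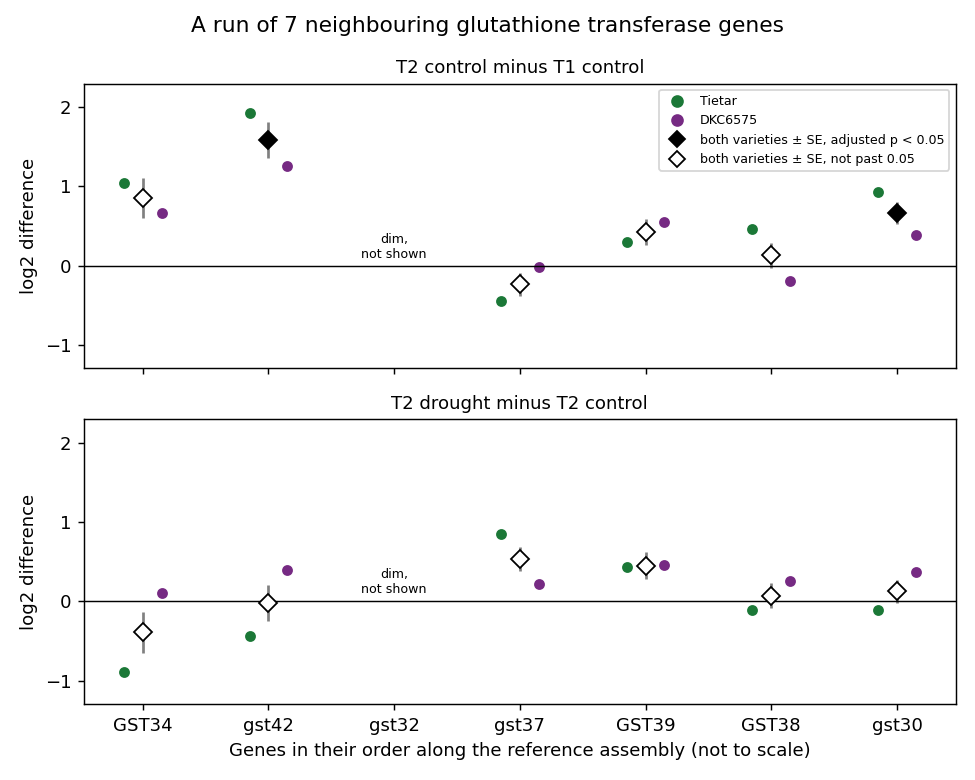
Log2 differences of the 7 neighbouring genes in their order on the reference assembly (positions not to scale), from T1 to T2 control above and from T2 control to T2 drought below. Circles are the varieties (1 array on each side), diamonds the limma estimate with 1 SE, filled where the adjusted p is under 0.05; gst42 (1.59) and gst30 (0.66) are filled above and none below.

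Other genes of glutathione metabolism and transport were represented by 14 probe sets, or 13 genes if each probe set without a gene number counts as its own gene. They include 2 probe sets titled herbicide safener binding protein1, which is no enzyme or transporter of glutathione. Of the 14 probe sets, 12 were brighter. Of these 12, 7 carry titles from the study's supplementary list of changed genes, so their direction is not independent of the selection. Glutathione itself is made by the enzymes of gsh1 and gsh2. Their probe sets gave 162, 187 and 234 (Tietar) and 167, 175 and 236 (DKC6575) for gsh1, and 324, 343 and 328 (Tietar) and 332, 289 and 333 (DKC6575) for gsh2. For gsh1 the drought difference was 0.38 (SE 0.15, limma adjusted p = 0.334) and for gsh2 0.07 (SE 0.13, adjusted p = 0.878), neither past the threshold.

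Under drought 2 of the 12 fell (background 0.78%) and 0 rose (background 0.896%), and from T1 to T2 3 fell (background 5.49%) and 1 rose (background 9.38%). The safener binding protein gave 1 of the 2 falls under drought and 2 of the 3 from T1 to T2. In single varieties, 6 of the 12 were at least 2-fold lower under drought in Tietar (background 1.59%), all 6 of them titled in the study's list, and 1 in DKC6575 (background 0.568%). From T1 to T2 in Tietar, 3 were at least 2-fold higher (background 2.74%) and 3 at least 2-fold lower (background 2.03%). The 3 higher ones, 2 of lactoylglutathione lyase and 1 of adenosine 5′-phosphosulfate reductase 3, are among the 6, and both differences contain the Tietar T2 control array. Against the mean of the 2 T2 controls their drought differences in Tietar were -1.22, -0.46 and -1.02. The transporter title multidrug resistance associated protein 1, of the ABC subfamily known for moving conjugates into the vacuole, had signals of 369, 174 and 52.1 in Tietar and 339, 188 and 76.0 in DKC6575. It fell in both comparisons, by 0.97 from T1 to T2 (SE 0.20, limma adjusted p = 0.025) and by 1.52 under drought (SE 0.20, limma adjusted p = 0.0226). Of the 2 safener binding protein probe sets, one gave 1694, 441 and 107 in Tietar and 2074, 376 and 215 in DKC6575. Both probe sets fell from T1 to T2, by 2.20 and 2.18 (limma adjusted p = 0.0033 and 0.0119), and under drought this one fell by 1.43 (limma adjusted p = 0.0484) while the other did not pass (adjusted p = 0.301). A titled glutaredoxin, Grx_C4, was the 1 probe set of this list that rose from T1 to T2 (0.55, SE 0.12, limma adjusted p = 0.0259). The other transporters, MRP2 and MRP4 (lpa1, the low phytic acid gene), and the safener-induced In2-1 did not pass in either comparison. Nor did 2 probe sets titled lactoylglutathione lyase, an enzyme that uses glutathione to remove methylglyoxal, or adenosine 5′-phosphosulfate reductase 3, of sulfur assimilation (-0.91 under drought, SE 0.31, limma adjusted p = 0.266).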

How the data were processed

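Leaf RNA of Tietar and DKC6575 was hybridised to 6 Affymetrix maize arrays, 1 per variety and condition. The methods name RMA for extraction and Partek for analysis. The intensity values deposited by the authors are on a linear scale, each array scaled to a 2% trimmed mean of 500, and not quantile-normalized. RMA could not be repeated from them. Signals were converted to log2, and 113 of 17734 probe sets, all controls, were left out. Probe sets were named through the platform's gene numbers, NCBI synonyms and the titles of the study's supplementary list, and gene order came from the Zm-B73-REFERENCE-NAM-5.0 gene table, used only for neighbours. Counts at 2-fold compare single arrays and carry no test.

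The model was fitted with limma 3.58.1 in R 4.3.3 (lmFit, eBayes with an intensity trend; variety plus condition, 2 residual degrees of freedom) over 17621 probe sets. The number of arrays limits the precision. A constant difference between varieties is taken out by the variety term. The p-values therefore rest on how far differences between conditions disagree between the varieties, moderated by the spread of other probe sets. They do not measure the spread between plants or plots. Intervals are 95% intervals of this fit. On simulated data for the drought comparison over 17621 probe sets, the fit called 94 of 100 probe sets changed 2-fold, 100 of 100 changed 4-fold and 16 unchanged ones. The simulated noise was set by mean signal alone, as the trend assumes, with no spread particular to a probe set. The simulated varieties also did not differ in response, so these shares do not give the power on the real arrays. Members passing limma in drought, development or variety, members at 2-fold in a variety and the 5 brightest are given with all 6 signals, and others were named after their values were seen. Members, gene lists and tests were chosen with earlier results of these data known. Alternatives were no trend, brighter probe sets only, 3 other scalings, a floor at 64, 1 probe set per gene, no variety term, fold thresholds of 1.5 and 3, a minimum mean log2 of 8 or none, and each array left out. Added after seeing the data were members named by NCBI alone, the floor with brighter probe sets only, and the mean of both T2 controls as baseline. Tables and figures were made in Python 3.11.15 with pandas 2.3.3, numpy 2.4.6, scipy 1.17.1 and matplotlib 3.10.9.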

Additional observations from a re-analysis of the deposited data

Results flagged for a closer look

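The varieties gave differences of opposite sign in 10 of the 25 brighter members under drought (40%, background 38.1%) and in 5 from T1 to T2 (20%, background 27.2%), and in 3 of these cases they lay at least 2-fold apart. The difference between the varieties was not tested, since each value rests on 1 array per variety and condition. For gst13 the drought difference was 0.65 in Tietar and -0.48 in DKC6575, 1.13 apart on the log2 scale, and the T1 to T2 difference was 0.83 and -0.52, 1.35 apart. Its Tietar signals at T1 control, T2 control and T2 drought were 55.4, 98.2 and 154, those of DKC6575 89.4, 62.4 and 44.7, and 3 of the 6 lay under 64. For gst31, the probe set that reached 2-fold in Tietar gave a T1 to T2 difference of 1.39 in Tietar and -0.09 in DKC6575, 1.48 apart.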

How the results depend on the processing

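The drought count of members that rose (2) became 0 without the intensity trend, over all or only brighter probe sets, and with a floor at 64. It was also 0 with no replicate block, that is, without the variety term that pairs the arrays. The development count (7) became 0 with the floor and without the trend over all probe sets. Without the trend over brighter probe sets only it was 6, of which 5 were among the 7. With 1 array left out both counts moved in both directions, as did the calls over the whole array. The floor ties about 40% of values; over brighter probe sets only, added after seeing the data, it gave 2 and 7. Elsewhere these counts were 2 for drought and 5 to 7 for development. Without the variety term 6 rose in development. Variety counts were 0 under all alternatives. At 1.5-fold the single-variety counts were 10 (drought, Tietar), 4 (drought, DKC6575), 11 and 8 (development), and 3 in each condition between varieties; at 3-fold they were 0 for drought in Tietar, 1 and 0 for development and 0 at T1 control. With no filter on members they were 3 and 5 for drought, 9 and 8 for development, and 5, 2 and 6 between varieties at T1 control, T2 control and T2 drought. A minimum mean log2 of 8 left 0 and 2 for development, and 0 between varieties at T1 control and T2 drought, and the floor left 0 at T1 control. For drought in Tietar, quantile normalization gave 3 and cyclic loess 2, and for development in DKC6575 these and median centring gave 2. All these fold counts take higher and lower members together. No share of all probe sets is given at these settings, so the counts cannot be set against a background. Median centring moved the median of all probe sets by -0.15 for development in DKC6575, -0.14 for drought in Tietar and -0.10 for development in Tietar. Under the other scalings the medians over members moved by less than 0.27 (the SD of the T1 difference between varieties over all brighter probe sets) and kept their sign. With 1 array per variety and condition, and signals of several members near 64, small differences were not detectable.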
